A study of Mus musculus with 9 samples.

Results

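The Toll-like receptors other than Tlr4 were taken as the rows of the deposited expression table with the symbols Tlr1, Tlr2, Tlr3, Tlr5, Tlr6, Tlr7, Tlr8, Tlr9, Tlr12 and Tlr13. All 10 symbols were present among the 18042 genes of the table, and all 10 passed the filter on low counts, beside 13080 other genes. The RNA came from wild-type, 6 to 8 week old female C57BL/6 mice that carried subcutaneous tumours of MC38, a mouse colon carcinoma line, and from which CD11b+ F4/80+ cells, the tumour-associated macrophages, had been sorted by flow cytometry. The mice were assigned to groups on day 9 after the tumour cells and were injected into the tumour with OMVs or IN@OMVs, each at 12.5 µg of vesicle protein per mouse (625 µg per kg), or with the same volume of solvent (Control, named PBS in one label). OMVs is the usual short form of outer membrane vesicles, particles that Gram-negative bacteria shed, and the sources used here do not spell out IN. Each group had 3 libraries from samples labelled as biological replicates, and the labels do not say whether a replicate was 1 mouse or a pool.

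Toll-like receptors are membrane proteins that recognise microbial molecules through leucine-rich repeats and signal through an intracellular TIR domain, by way of MyD88 or, for TLR3, TRIF. TLR1, TLR2, TLR5 and TLR6 sit at the cell surface and bind lipoproteins (TLR2 paired with TLR1 or TLR6) or flagellin (TLR5). TLR3, TLR7, TLR8, TLR9 and TLR13 sit in endosomes and bind nucleic acids, and the endosomal TLR11 and TLR12 of the mouse bind profilin of protozoa. Macrophages express most of the family, and outer membrane vesicles carry lipopolysaccharide, the ligand of TLR4, together with lipoproteins.

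Among the 10 receptors, Tlr12 and Tlr3 rose in IN@OMVs against Control, Tlr12 by 3.29-fold and Tlr3 by 1.49-fold, and Tlr12 also rose 2.31-fold in IN@OMVs against OMVs. No receptor fell past the threshold in any of the 3 comparisons, and none passed it in either direction in OMVs against Control. Each of the 9 libraries held 16813230 to 17288322 expected counts, the reads assigned to a gene by estimation, and these were scaled by library size to CPM. The sorted cells carried macrophage markers at a summed 8163 to 12540 CPM over 9 genes. None of these 9 passed in edgeR, while 4 had an unadjusted p under 0.05 in IN@OMVs against Control, where DESeq2 and limma-voom each called 1. Itgam, the gene of CD11b, narrowly missed the threshold there as lower (-0.50 ± 0.13, adjusted p = 0.0512, edgeR). Fcgr1, C1qb and C1qc, the others with an unadjusted p under 0.05, were higher. One library stood apart: IN@OMVs 1 had the highest macrophage marker sum (12540 CPM, against 8163 to 10570 in the other 8) and the lowest fibroblast marker sum (1433 CPM, against 3295 to 5577). Changes of the receptors against Control are therefore also given without IN@OMVs 1. T cell markers (7 measured) summed to 157 to 188 CPM in the libraries numbered 1 and to 33.1 to 75.8 CPM in the other 6.

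The start regions of the 2 receptors that rose are shown first, beside those of Tlr6, which did not rise, and of Tlr11, the partner of Tlr12 and no member of the set, added after its values were seen. Each is the RefSeq window of GRCm38.p6 from 250 bases before to 50 after the annotated start, read 5′ to 3′ on the gene's strand. The deposited counts come from another build, so the windows serve as sequence only. Capitals mark matches, on either strand, to 4 motifs: the interferon-stimulated response element (GAAA and GAAA with any 2 bases between), the gamma-activated site TTCNNNGAA, an NF-kB site (GGGA, any base, TTTCC) and a PU.1 site GAGGAAGT.
Tlr12, chr4:128618570-128618869, minus strand: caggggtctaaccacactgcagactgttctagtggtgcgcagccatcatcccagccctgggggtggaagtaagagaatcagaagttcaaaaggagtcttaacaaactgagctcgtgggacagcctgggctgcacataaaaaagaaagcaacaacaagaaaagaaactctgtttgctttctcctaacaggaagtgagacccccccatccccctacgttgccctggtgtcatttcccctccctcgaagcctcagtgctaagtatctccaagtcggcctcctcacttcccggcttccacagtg
Tlr3, chr8:45410331-45410630, minus strand: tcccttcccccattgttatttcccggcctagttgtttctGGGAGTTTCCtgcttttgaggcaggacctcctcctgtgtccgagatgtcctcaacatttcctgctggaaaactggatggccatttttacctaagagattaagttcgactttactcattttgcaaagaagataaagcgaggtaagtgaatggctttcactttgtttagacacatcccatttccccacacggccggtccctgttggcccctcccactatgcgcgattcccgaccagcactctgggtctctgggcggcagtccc
Tlr6, window 1, chr5:64959117-64959416, minus strand: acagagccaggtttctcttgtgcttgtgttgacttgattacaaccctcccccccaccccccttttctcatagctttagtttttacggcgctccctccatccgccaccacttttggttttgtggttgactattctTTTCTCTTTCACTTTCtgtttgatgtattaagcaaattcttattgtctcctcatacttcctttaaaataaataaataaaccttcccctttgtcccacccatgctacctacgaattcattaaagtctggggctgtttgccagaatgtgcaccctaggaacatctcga
Tlr11, chr14:50357664-50357963, plus strand: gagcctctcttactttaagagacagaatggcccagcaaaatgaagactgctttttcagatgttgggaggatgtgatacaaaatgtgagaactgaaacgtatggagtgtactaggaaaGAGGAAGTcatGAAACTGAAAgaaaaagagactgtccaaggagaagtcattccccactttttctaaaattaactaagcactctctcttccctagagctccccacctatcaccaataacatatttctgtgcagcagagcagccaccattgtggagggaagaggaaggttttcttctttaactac

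The Tlr12 window held none of the 4 motifs, and the Tlr3 window held the NF-kB letters once, from base -211 relative to the start. The Tlr6 window shown held the interferon-stimulated response element at 2 overlapping places, from bases -116 and -110, and no other window of the 10 receptors held it. The Tlr11 window held that element once, from base -122, and the PU.1 letters from base -133. In all 32851 windows of the table, 3.44% held the interferon-stimulated response element, 8.3% the gamma-activated site, 0.411% the NF-kB letters and 3.2% the PU.1 letters. Windows were found for 9 of the 10 receptors (Tlr7 being the other), 11 windows in all, and 5 receptors had at least 1 match. Among the windows not shown, window 2 of Tlr6 held the gamma-activated site from bases -3 and 7. Tlr1 held that site and the PU.1 letters in separate windows, Tlr8 held that site, and Tlr9 held the PU.1 letters. The share of all windows with any of the 4 motifs was not computed. A match is a run of letters and no measured site.

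The level of a receptor can be compared with that of another only per length, and for this the CPM was divided by the length of a GENCODE M21 mRNA of the gene in kilobases. On this scale Tlr2 was the highest in Control, with 102 ± 3.75 CPM per kilobase (mean ± SD, n = 3). Tlr8 (56.9 ± 1.21) and Tlr13 (56.3 ± 2.79) followed, and their ranges overlapped. Tlr7 (29.0 ± 0.842) and Tlr1 (26.8 ± 1.85) came next, also with overlapping ranges, and then Tlr9 (11.96 ± 0.15) and Tlr5 (9.61 ± 0.515), whose ranges did not overlap. Tlr6 (7.43 ± 0.426) and Tlr3 (6.65 ± 0.112) followed without overlap, and Tlr12 was the lowest at 1.18 ± 0.155. The receptor with the largest fold change was thus the one with the lowest level, and it rested on 58 to 75 expected counts in a Control library and 181 to 260 in an IN@OMVs library. In IN@OMVs the mean of Tlr3 (9.92) lay above those of Tlr5 (7.14) and Tlr6 (6.47), and Tlr12 remained the lowest at 3.91.

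**Figure D1:**
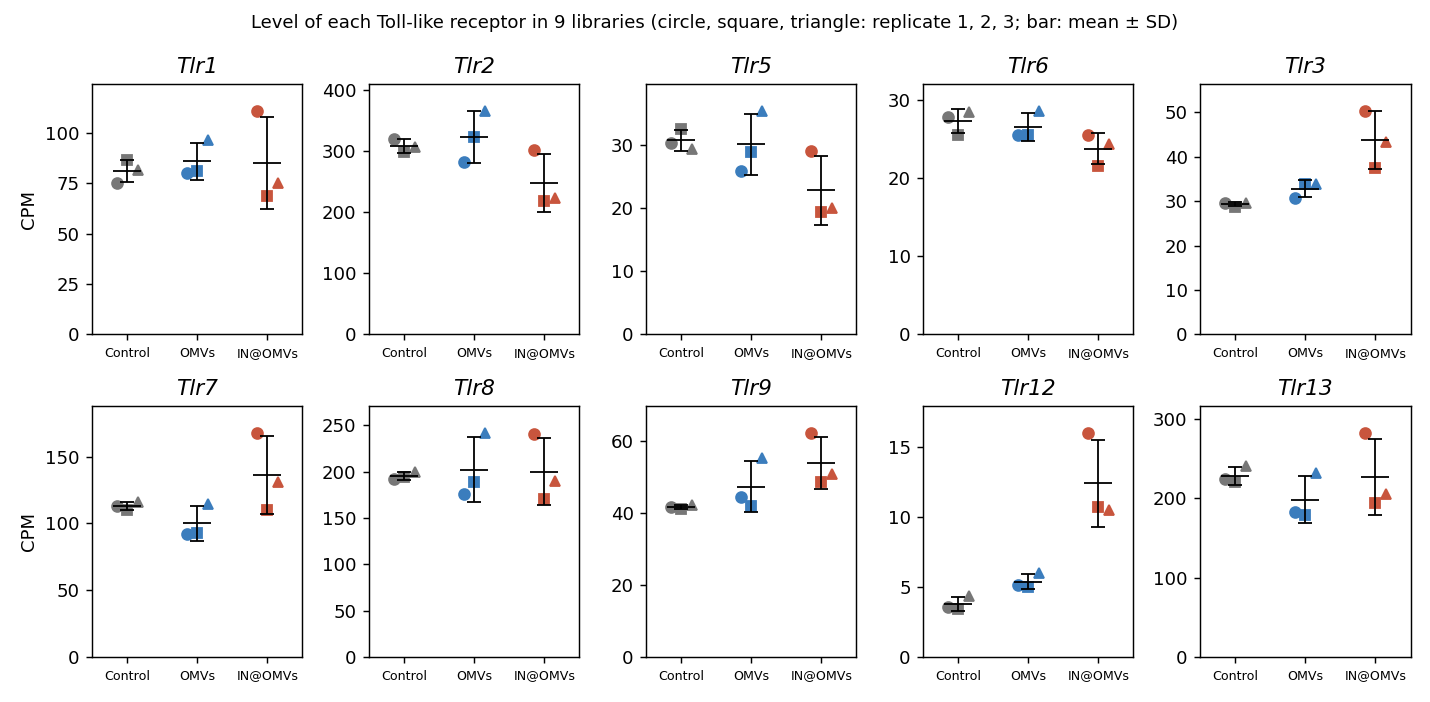
CPM (vertical axis, from 0, a separate scale for each gene) of the 10 receptors in the 3 libraries of Control (grey), OMVs (blue) and IN@OMVs (red); circles, squares and triangles are replicates 1, 2 and 3, and the black bar is the mean ± SD. The 3 groups do not overlap for Tlr3 and Tlr12, while groups overlap for Tlr1, Tlr7, Tlr8 and Tlr13. The IN@OMVs 1 circle lies above the 2 other IN@OMVs libraries for all 10 receptors.

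Tlr12 stood at 3.57, 3.39 and 4.32 CPM in Control 1, 2 and 3, at 5.11, 5.01 and 5.97 CPM in OMVs 1, 2 and 3, and at 16.01, 10.7 and 10.5 CPM in IN@OMVs 1, 2 and 3. Every OMVs library lay above every Control library, and every IN@OMVs library above every OMVs library. In edgeR's quasi-likelihood fit over all genes the log2 fold change of IN@OMVs against Control was 1.72 ± 0.20 (SE, adjusted p = 0.00113). IN@OMVs against OMVs gave 1.21 ± 0.19 (adjusted p = 0.0112), and OMVs against Control 0.51 ± 0.20, which did not pass (adjusted p = 0.492). Without IN@OMVs 1 the change against Control was 1.49 (adjusted p = 0.00022), and over the 9 omissions of 1 library it stayed between 1.49 and 1.83, past the threshold each time. The difference from OMVs missed the threshold without OMVs 1 (1.18, adjusted p = 0.0573) or OMVs 2 (1.16, adjusted p = 0.0647).

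Tlr3, the receptor for double-stranded RNA, stood at 29.6, 28.8 and 29.6 CPM in Control 1, 2 and 3, at 30.7, 33.8 and 33.9 CPM in OMVs, and at 50.4, 37.5 and 43.3 CPM in IN@OMVs. The 3 groups again did not overlap. The increase in IN@OMVs against Control was 0.58 ± 0.10 on the log2 scale (adjusted p = 0.0104, edgeR). It was 0.46 without IN@OMVs 1 (adjusted p = 0.00345), and it narrowly missed the threshold without Control 2 (0.56, adjusted p = 0.055) or Control 3 (0.58, adjusted p = 0.0542). IN@OMVs against OMVs gave 0.41 ± 0.10, which did not pass (adjusted p = 0.0698), and OMVs against Control 0.16 ± 0.10 (adjusted p = 0.777). Tlr3 and Tlr12 were the 2 receptors with Control below OMVs below IN@OMVs and no overlap, a pattern found in 1.5% of all genes tested, and 0 receptors had the opposite order (1.15% of all genes).

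Tlr11 repeated the order of Tlr12 at a lower level. It stood at 1.67, 1.69 and 1.44 CPM in Control, at 2.58, 2.27 and 2.69 CPM in OMVs and at 6.40, 3.42 and 5.12 CPM in IN@OMVs, with no overlap between the groups. It rose in IN@OMVs against Control (1.63 ± 0.24, adjusted p = 0.00484, edgeR) and did not pass against OMVs (0.98 ± 0.23, adjusted p = 0.0676). These counts were small, from 25 to 29 expected counts in a Control library to 60 to 104 in an IN@OMVs library.

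Among the other endosomal receptors none passed. Tlr9, which binds CpG DNA, stood at 41.7, 41.0 and 42.04 CPM in Control, at 44.4, 41.9 and 55.2 CPM in OMVs and at 62.1, 48.6 and 50.7 CPM in IN@OMVs. All IN@OMVs libraries lay above all Control libraries, but the difference did not pass (0.37 ± 0.12, adjusted p = 0.113, edgeR), nor did that from OMVs (0.19 ± 0.12, adjusted p = 0.54). Without IN@OMVs 1 the change against Control was 0.25 (adjusted p = 0.137). Tlr7, a receptor for single-stranded RNA, stood at 113, 110 and 116 CPM in Control, at 91.9, 93.0 and 115 CPM in OMVs and at 168, 110 and 131 CPM in IN@OMVs. Its groups overlapped, and its change was 0.27 ± 0.14 against Control (adjusted p = 0.361) and 0.45 ± 0.15 against OMVs (adjusted p = 0.186). Without IN@OMVs 1 these were 0.09 and 0.27.

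Tlr8, the neighbour of Tlr7 in sequence and ligand, stood at 192, 194 and 200 CPM in Control, at 176, 189 and 242 CPM in OMVs and at 240, 170 and 190 CPM in IN@OMVs. Its 3 group means, 195 ± 4.15, 202 ± 34.9 and 200 ± 36.1 CPM, differed by less than the spread within the treated groups. The log2 change in IN@OMVs against Control was 0.03 ± 0.14, and -0.12 without IN@OMVs 1. Counts of Tlr7 per count of Tlr8 were 0.591, 0.565 and 0.582 in Control, 0.523, 0.492 and 0.475 in OMVs and 0.699, 0.646 and 0.69 in IN@OMVs. In this ratio, chosen after the values were seen and not tested, the 3 groups did not overlap, with OMVs below and IN@OMVs above Control. Tlr13, which recognises bacterial ribosomal RNA, stood at 224, 220 and 241 CPM in Control, at 183, 179 and 232 CPM in OMVs and at 283, 194 and 205 CPM in IN@OMVs. Its log2 change in IN@OMVs against Control was -0.01 ± 0.15 (adjusted p = 0.982, edgeR), and that in OMVs was -0.21 ± 0.15 (adjusted p = 0.836). Without IN@OMVs 1 the former was -0.20 (adjusted p = 0.247). IN@OMVs 1 was the highest library of all 9 for 6 of the 10 receptors, Tlr3 and Tlr12 included beside Tlr1, Tlr7, Tlr9 and Tlr13, as it was for the macrophage markers, and whether these move together was not tested.

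None of the 4 cell surface receptors passed in a comparison of all 9 libraries, and Tlr2, Tlr5 and Tlr6 had log2 changes below 0 in both IN@OMVs comparisons. Tlr2, the shared partner of the lipoprotein receptors, stood at 320, 298 and 307 CPM in Control, at 281, 323 and 366 CPM in OMVs and at 302, 218 and 223 CPM in IN@OMVs. IN@OMVs 2 and 3 lay below every other library and IN@OMVs 1 among them. The change was -0.32 ± 0.14 against Control (adjusted p = 0.236, edgeR) and -0.39 ± 0.14 against OMVs (adjusted p = 0.225). Without IN@OMVs 1 it was -0.49 (adjusted p = 0.00885) and -0.56 (adjusted p = 0.00775), both past the threshold.

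Tlr5, the flagellin receptor, had the same arrangement, with 30.4, 32.5 and 29.3 CPM in Control, 25.9, 28.9 and 35.5 CPM in OMVs and 29.1, 19.4 and 20.0 CPM in IN@OMVs. All 3 IN@OMVs libraries lay below all Control libraries. The change against Control was -0.43 ± 0.17 (adjusted p = 0.191, edgeR), and -0.65 without IN@OMVs 1 (adjusted p = 0.00676). Against OMVs it was -0.40 ± 0.17 (adjusted p = 0.322), and -0.61 without IN@OMVs 1 (adjusted p = 0.0152).

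Tlr6 and Tlr1 encode the alternative partners of TLR2. Tlr6 stood at 27.9, 25.5 and 28.5 CPM in Control, at 25.5, 25.5 and 28.7 CPM in OMVs and at 25.5, 21.5 and 24.3 CPM in IN@OMVs, with all IN@OMVs libraries below all Control libraries by a small margin (-0.20 ± 0.09, adjusted p = 0.246, edgeR; -0.26 without IN@OMVs 1). Tlr1 stood at 75.1, 86.3 and 81.6 CPM in Control, at 80.0, 81.1 and 96.2 CPM in OMVs and at 111, 68.7 and 74.8 CPM in IN@OMVs. Its change against Control, 0.07 ± 0.17 (adjusted p = 0.882), took the other sign without IN@OMVs 1 (-0.18, adjusted p = 0.234).

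Tlr1, Tlr6 and Tlr7 had fractional counts in all 9 libraries, while the other 7 receptors had whole counts throughout. RSEM, which the processing notes name, divides a read that matches more than 1 sequence. Tlr1 and Tlr6 are close copies: 77% of 2342 aligned bases of their longest reading frames were identical in GENCODE M21, and 15.3% of the 50-base words of the Tlr1 mRNA also stood in Tlr6. Their longest identical run, 229 bases, is shown because a short read from inside it belongs to both genes; it covers bases 1468 to 1696 of the Tlr1 reading frame and 1507 to 1735 of that of Tlr6.
Tlr1 and Tlr6: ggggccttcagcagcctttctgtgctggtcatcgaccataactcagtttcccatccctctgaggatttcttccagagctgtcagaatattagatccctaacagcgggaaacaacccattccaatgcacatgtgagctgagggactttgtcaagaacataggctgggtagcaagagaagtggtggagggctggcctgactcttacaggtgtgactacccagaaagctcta
The split of such reads between Tlr1 and Tlr6 is an estimate of the authors' counting, and the levels of both genes are uncertain to that extent. For Tlr7 no 50-base word was shared with another gene of that annotation.

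**Figure D2:**
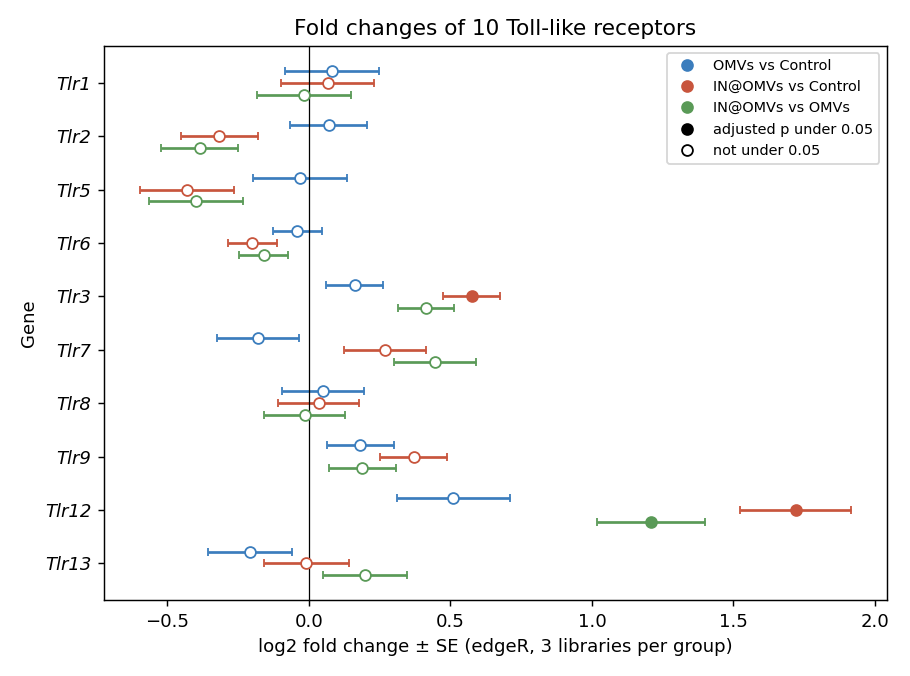
Log2 fold change ± SE (horizontal axis, edgeR) of the 10 receptors in OMVs against Control (blue), IN@OMVs against Control (red) and IN@OMVs against OMVs (green), each from 3 libraries per group; filled points had an adjusted p under 0.05. The filled points are Tlr12 (1.72 and 1.21) and Tlr3 (0.58), and the surface receptors Tlr2, Tlr5 and Tlr6 lie left of 0 in both IN@OMVs comparisons with open points.

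In OMVs against Control 0 of 10 receptors passed, where 0.42% of all genes did (0.298% higher and 0.122% lower), and 1 receptor (Tlr12) had an unadjusted p under 0.05, against 8.44% of all genes. DESeq2 and limma-voom also called 0 of 10. In 2 of 10 receptors the groups did not overlap, both higher, beside 19.8% of all genes (9.89% higher and 9.89% lower). Apart from Tlr12, the log2 changes ran from -0.21 (Tlr13) to 0.18 (Tlr9). The median log2 change was 0.06, and -0.00 over all genes tested. In IN@OMVs against Control 2 of 10 rose and 0 fell, beside 6.55% of all genes called (3.32% higher and 3.24% lower). With the replicate number as a block 2 rose (Tlr3 and Tlr12), beside 5.14% of all genes. In 5 receptors these groups did not overlap (Tlr3, Tlr9 and Tlr12 higher, Tlr5 and Tlr6 lower), beside 25.9% of all genes (13.3% higher and 12.5% lower), and 6 had an unadjusted p under 0.05 beside 19.8%. Without IN@OMVs 1 the count was 4, Tlr2 and Tlr5 being added as lower, where 12.4% of all genes were called. Without Control 2 or Control 3 it was 1 (Tlr12), where 3.03% and 2.97% were. In IN@OMVs against OMVs 1 of 10 rose and 0 fell, beside 2.85% of all genes called (1.1% higher and 1.75% lower; 2.34% with the block), and in 2 the groups did not overlap (Tlr3 and Tlr12, both higher), beside 17.6% (8.86% higher and 8.72% lower). The count in that comparison was 4 without IN@OMVs 1 (5.95% of all genes), 2 without IN@OMVs 2 (2.08%), and 0 without OMVs 1 (1.6%) or OMVs 2 (1.36%). The first 2 comparisons share the Control libraries, and the last shares its libraries with both.

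Proportions within a library do not depend on how libraries are scaled. The 6 endosomal receptors made up 57.1%, 57.5% and 58.7% of the summed CPM of the 10 receptors in Control, 56.3%, 54.2% and 56.5% in OMVs and 63.7%, 63.6% and 64.8% in IN@OMVs. All 3 IN@OMVs libraries, IN@OMVs 1 included, lay above the other 6. Counts of Tlr2 per count of Tlr3, a ratio chosen after the values were seen, were 10.8, 10.4 and 10.4 in Control, 9.16, 9.56 and 10.8 in OMVs and 6.00, 5.80 and 5.16 in IN@OMVs. In this ratio IN@OMVs 1 stood with IN@OMVs 2 and 3. Counts of Tlr12 per count of Tlr13 were 0.0159, 0.0154 and 0.0179 in Control, 0.0279, 0.028 and 0.0257 in OMVs and 0.0567, 0.0553 and 0.0514 in IN@OMVs, with wide gaps between the 3 groups. These proportions are given as descriptions, with no test. Both ratios hold a receptor already called, Tlr3 or Tlr12, and are no separate evidence. Other ratios were computed as well. IN@OMVs also lay apart from the other groups in Tlr1 per Tlr2. It overlapped another group in Tlr6 per Tlr2, Tlr1 per Tlr6, Tlr9 per Tlr7 and Tlr3 per Tlr7.

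**Figure D3:**
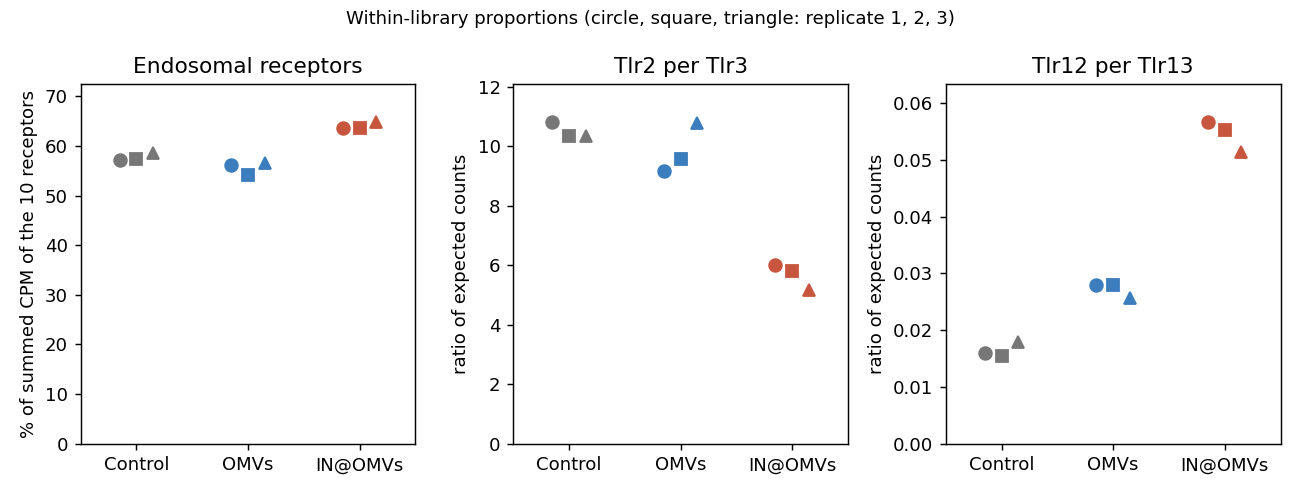
Left, the share in % of the summed CPM of the 10 receptors that the 6 endosomal ones hold; middle, expected counts of Tlr2 per expected count of Tlr3; right, expected counts of Tlr12 per expected count of Tlr13; each point is 1 library (circle, square, triangle for replicates 1, 2, 3), and all axes start at 0. The IN@OMVs libraries lie between 63.6% and 64.8% on the left and between 5.16 and 6.00 in the middle, apart from the other 6 libraries.

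Markers of cell types that carry Toll-like receptors differed between the groups too. In these bulk libraries, fewer cells of a type and less RNA per cell cannot be told apart. Type 1 conventional dendritic cells are known for Tlr3, Tlr11 and Tlr12. Of their 7 markers, Clec9a (1.31 on the log2 scale, adjusted p = 0.00832) and Batf3 (1.33, adjusted p = 0.0168) rose in IN@OMVs against Control in edgeR, and the other 5 did not pass. Those 5 were Xcr1 (0.99, adjusted p = 0.194), Cadm1 (0.23), Wdfy4 (0.03), Snx22 (-0.14) and Itgae (-0.43), on both sides of 0. Xcr1, which defines these cells, lay between 0.993 and 1.55 CPM in Control, 0.699 and 1.89 CPM in OMVs and 1.92 and 3.26 CPM in IN@OMVs. Clec9a lay between 1.29 and 1.73 CPM in Control, 2.07 and 2.81 CPM in OMVs and 3.08 and 4.25 CPM in IN@OMVs. Its groups did not overlap and had the order of Tlr3 and Tlr12, which the other markers of the list did not show without overlap. The summed level of the 7 markers ran from 153 to 161 CPM in Control, 126 to 156 CPM in OMVs and 139 to 212 CPM in IN@OMVs, and none was at 0 in every library. Type 1 dendritic cells are usually low in CD11b and F4/80, for which the cells had been sorted. Their part in the Tlr3 and Tlr12 results was not tested.

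All 7 neutrophil markers fell in IN@OMVs against Control, from a summed 767 to 1118 CPM to 129 to 195 CPM, with 547 to 727 CPM in OMVs. Of the 7 monocyte markers 5 fell, from 2257 to 2477 CPM to 1028 to 1365 CPM, with 1579 to 1963 CPM in OMVs. Over all genes tested 3.24% fell in IN@OMVs against Control. The sort for F4/80 would be expected to remove neutrophils, which lack it. Neutrophils and monocytes carry Tlr2 and Tlr5. In IN@OMVs 1, 2 and 3 the neutrophil sums were 194.7, 128.8 and 141.5 CPM, and the monocyte sums 1365, 1028 and 1122 CPM. IN@OMVs 1 was thus the highest of its group in both sums, though below every Control and OMVs library. In IN@OMVs 1 Tlr2 stood at 302 CPM and Tlr5 at 29.1 CPM, also above their values in IN@OMVs 2 and 3. The part of these cells in the Tlr2 and Tlr5 values of IN@OMVs was not tested. B cells and plasmacytoid dendritic cells are known for Tlr7 and Tlr9. The B cell gene Cd79a (0 to 0.834 CPM) and the plasmacytoid gene Siglech (0.057 to 1.67 CPM) were low in all 9 libraries. Other genes of these lists were higher, such as Cd22 (10.1 to 19.1 CPM; 0.67 in IN@OMVs against Control, adjusted p = 0.0672), Cd79b (2.1 to 5.66 CPM) and Tcf4 (89.02 to 104 CPM). None of the 4 tested B cell markers and none of the 3 tested plasmacytoid markers passed in edgeR. For the B cell list, 1 marker had an unadjusted p under 0.05 in each comparison with Control and DESeq2 called 1 in IN@OMVs, and for the plasmacytoid list both counts were 0.

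The genes around the receptors were taken from 8 lists of pathway genes, 65 genes in all, of which 64 were tested. In OMVs against Control 0 of 64 passed in edgeR, beside 0.42% of all genes tested. There 6 had an unadjusted p under 0.05 (8.44% of all genes) and DESeq2 called 2 (1.58%). In IN@OMVs against Control 5 rose and 6 fell, with a median of 0.01, beside 6.55% of all genes called (3.32% higher and 3.24% lower). In IN@OMVs against OMVs 5 rose and 7 fell, beside 2.85% (1.1% higher and 1.75% lower). The same shares of all genes stand beside the counts of each list below. Of the 5 adaptor genes 0 passed in any comparison by edgeR, DESeq2 or limma-voom, and 1 had an unadjusted p under 0.05 in IN@OMVs against Control. Myd88, the adaptor of all the receptors except TLR3 (named after its values were seen, as was Unc93b1), stood at 123 ± 7.8 CPM in Control, 115 ± 10.1 CPM in OMVs and 115 ± 26.6 CPM in IN@OMVs. Its IN@OMVs libraries stood at 145, 97.0 and 102 CPM, and without IN@OMVs 1 it passed as lower against Control (-0.31, adjusted p = 0.0314). Of the 10 genes of receptor folding and transport 0 passed in IN@OMVs against Control by edgeR or DESeq2, and 3 had an unadjusted p under 0.05. Unc93b1, which carries the endosomal receptors to their compartment, stood at 455 ± 4.47, 459 ± 56.2 and 521 ± 121 CPM in the 3 groups. IN@OMVs 1 was at 660 CPM and the other IN@OMVs libraries at 442 and 462 CPM, and the change against Control was 0.20 with IN@OMVs 1 and -0.01 without it. Cnpy4, a relative of the receptor chaperone Cnpy3, fell in IN@OMVs against OMVs (-0.32 ± 0.06, adjusted p = 0.0358), and kept that call in 2 of the 9 omissions (adjusted p up to 0.114).

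Of the 7 genes in the list named for the processing of nucleic acid ligands, 1 rose and 1 fell against Control. Dnase1l3, a secreted DNase, stood at 7.27, 6.14 and 5.70 CPM in Control, at 11.3, 11.2 and 15.8 CPM in OMVs and at 33.2, 20.5 and 23.7 CPM in IN@OMVs. It rose in IN@OMVs against Control by 2.02 ± 0.21 (adjusted p = 0.000818, edgeR), in the same group order as Tlr12 and with no overlap. Acp5, an acid phosphatase that was placed in this list and is no nuclease, fell from 235 ± 23.6 to 104 ± 15.8 CPM (-1.18 ± 0.14, adjusted p = 0.0016). Both passed in each of the 9 omissions of 1 library.

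Accessory receptors changed in both directions, 2 of 7 higher and 1 lower against Control as well as against OMVs. Cd14, which hands lipopolysaccharide and lipoproteins to TLR4 and TLR2, stood at 762, 698 and 739 CPM in Control and fell to 406, 321 and 322 CPM in IN@OMVs (-1.07 ± 0.12, adjusted p = 0.00121, edgeR), with 559, 696 and 739 CPM in OMVs. Cd36, a scavenger receptor that assists the TLR2 and TLR6 pair, rose from 38.6 ± 9.16 to 90.4 ± 2.54 CPM (1.23 ± 0.18, adjusted p = 0.00482). Cd180, a receptor of the same family without a TIR domain, rose from 79.5 ± 1.21 to 143 ± 27.3 CPM (0.85 ± 0.13, adjusted p = 0.0061). The Cd180 difference from OMVs (0.76 ± 0.13, adjusted p = 0.0184) missed the threshold without OMVs 1 or OMVs 2 (adjusted p up to 0.0882), and the other calls of these 3 genes held in every omission. Tlr4 itself stood at 157 ± 5.67, 164 ± 17.5 and 186 ± 19.2 CPM in Control, OMVs and IN@OMVs and did not pass in any comparison.

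Of 16 signalling kinases and ligases 0 rose and 2 fell against Control. Ikbke, the kinase IKK-epsilon, fell from 136 ± 3.14 to 87.1 ± 14.1 CPM (-0.65 ± 0.11, adjusted p = 0.011, edgeR), and Tab3, a partner of the kinase TAK1, from 22.7 ± 1.05 to 17.5 ± 0.399 CPM (-0.37 ± 0.08, adjusted p = 0.025, and 0.0641 with the replicate number as a block). Against OMVs, Ikbke fell and Ikbkg, the NEMO subunit, rose by 0.32 ± 0.07 (adjusted p = 0.0465). The Ikbkg call was lost with RLE factors (adjusted p = 0.0506), with limma-voom (0.0545) and in every omission other than that of IN@OMVs 1 (adjusted p up to 0.182). Of 7 transcription factor genes 2 rose against Control: Irf7 (0.68 ± 0.14, adjusted p = 0.0197), which drives interferon genes downstream of the endosomal receptors, and Irf8 (0.55 ± 0.13, adjusted p = 0.0344, and 0.0547 with the block). Irf7 also rose against OMVs (0.67 ± 0.14, adjusted p = 0.036), a call that was lost without any 1 of the OMVs or Control libraries (adjusted p up to 0.161).

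Of the 10 tested negative regulators 0 rose and 2 fell against Control, and 3 fell against OMVs. Irak3, a kinase relative that restrains MyD88 signalling, stood at 57.1, 57.6 and 56.8 CPM in Control, at 47.5, 52.3 and 59.7 CPM in OMVs and at 37.2, 25.3 and 29.5 CPM in IN@OMVs. All IN@OMVs libraries lay below the other 6 (-0.90 ± 0.13 against Control, adjusted p = 0.00445, edgeR). Tnfaip3, the ubiquitin editor A20, fell from 172 ± 30.8 to 104 ± 19 CPM (-0.73 ± 0.15, adjusted p = 0.0214). Tnip1, which binds A20, fell in IN@OMVs against OMVs (-0.61 ± 0.11, adjusted p = 0.0228). Of the 11 pathway calls against Control 6 held in each of the 9 omissions (Dnase1l3, Acp5, Cd14, Cd36, Cd180 and Irak3). Of the 12 against OMVs 3 did (Acp5, Cd14 and Cd36).

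Of the other 5 against Control, Tnfaip3 missed the threshold without IN@OMVs 2, IN@OMVs 3, Control 1 or Control 2 (adjusted p up to 0.083, edgeR), and Ikbke without IN@OMVs 3 or Control 3 (up to 0.0587). Irf7 missed it without any 1 of the Control libraries (up to 0.0864). Irf8 missed it without OMVs 1, OMVs 2 or any 1 Control library (up to 0.151), and Tab3 without IN@OMVs 2, IN@OMVs 3 or any 1 Control library (up to 0.103). The pathway count of 11 was 20 without IN@OMVs 1 (12.4% of all genes called) and 7 without Control 1, 2 or 3 (2.97% to 3.68%). The 12 against OMVs was 3 without OMVs 2 (1.36%) and 5 without OMVs 1, OMVs 3 or IN@OMVs 3 (1.44% to 1.6%). All 9 calls against OMVs that did not hold in every omission were lost without OMVs 2.

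**Figure D4:**
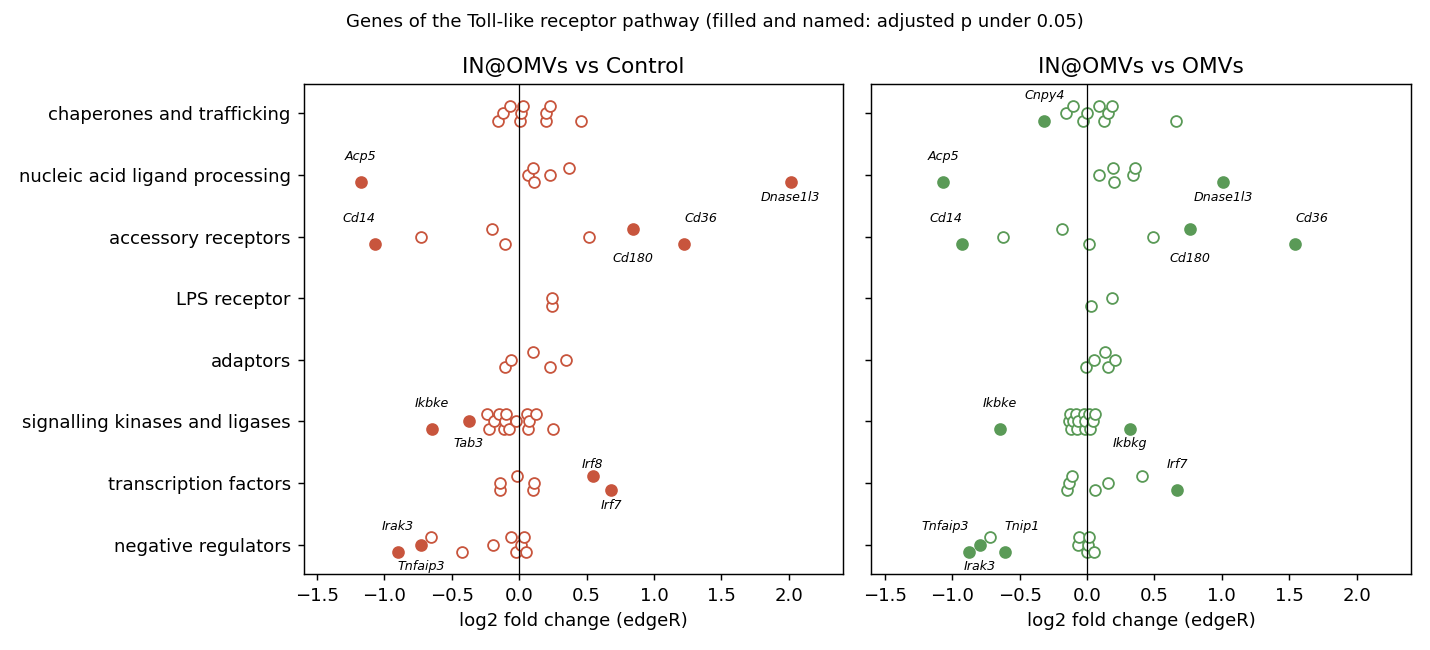
Log2 fold changes (horizontal axis, edgeR) of the 64 tested pathway genes in IN@OMVs against Control (left) and against OMVs (right), 1 row of points per list; filled points with a name had an adjusted p under 0.05. Dnase1l3 (2.02) and Acp5 (-1.18) are the outermost genes on the left, and the adaptors hold open points only.

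The genes whose profile over the 9 libraries was most like that of a receptor were found as the smallest root mean square difference of log2 CPM, each gene centred on its own mean, among 10577 tested genes at 5 CPM or more, leaving out predicted models. For Tlr3 these included Sp110, a nuclear body protein gene (0.0552), and Parp14, an ADP-ribosyltransferase gene (0.0566). The measure for Tlr3 against its own mean was 0.261. For Tlr12 they were Sectm1a (0.135), Myh10, a non-muscle myosin (0.183), and the lectin gene Mgl2 (0.194), where the measure against its own mean was 0.733. The log2 changes of Sectm1a, Myh10 and Mgl2 in IN@OMVs against Control were 1.83, 1.65 and 1.63. The genes were ranked on the same 9 libraries, so their likeness to Tlr3 and Tlr12 in the 3 comparisons is no separate evidence.

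**Figure D5:**
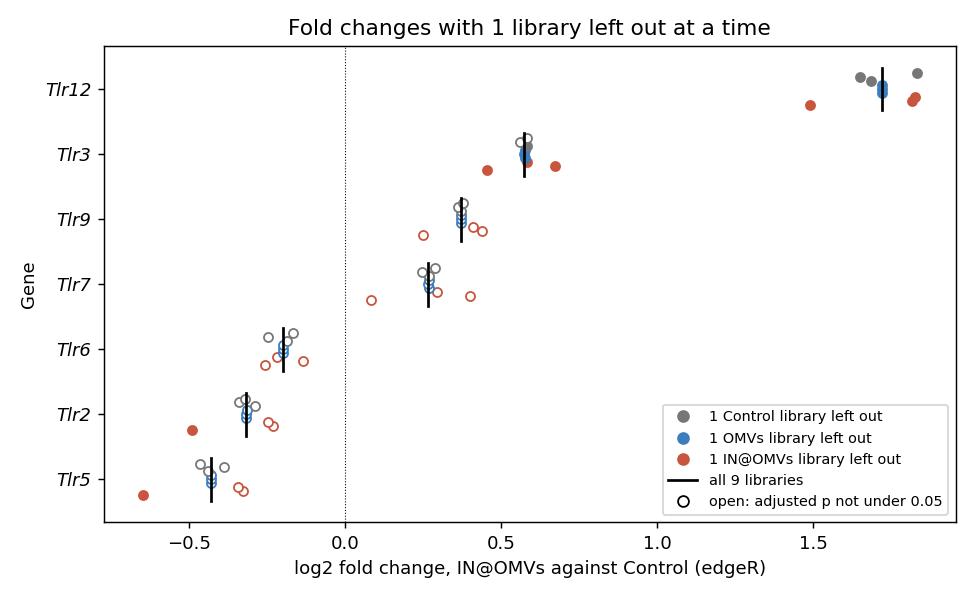
Log2 fold change in IN@OMVs against Control (horizontal axis, edgeR) of 7 receptors when 1 of the 9 libraries is left out; the colour gives the group of the library left out, the black bar is the value with all 9, and filled points had an adjusted p under 0.05. Tlr12 stays between 1.49 and 1.83 and filled throughout, and Tlr2 and Tlr5 are filled only where IN@OMVs 1 is left out (-0.49 and -0.65).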

How the data were processed

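RNA of sorted tumour-associated macrophages was measured in 9 libraries, prepared with TRIzol and oligo-dT beads per the labels. The authors deposited expected counts (estimated reads per gene, not normalised); that unit was read from the values. Per the submitters' processing notes RSEM, Bowtie2 and BWA were used and the builds mm9 and hg19 are named, with no versions or roles. Of the 18042 genes, 799 were at 0 in every library.

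Expected counts were rounded and fitted in edgeR 4.0.16 (R 4.3.3) with TMM factors, filterByExpr and 1 mean per group over all 9 libraries. P-values for 13090 tested genes were adjusted by Benjamini-Hochberg within each comparison (threshold 0.05). The common dispersion was 0.0172, with 6 residual degrees of freedom. The p-values judge differences of group means against the spread between these samples, which may be single mice or pools. SEs were derived from the F statistic, and CPM values use TMM-scaled library sizes. Alternatives were RLE factors, no filter, DESeq2 1.42.0, limma-voom (limma 3.58.1), a replicate block and omission of each library.

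The fit was tested on simulated data. Libraries of equal replicate number were compared by correlating their deviations from the group means. Replicates 1, 2 and 3 gave 0.086, 0.488 and -0.355 when IN@OMVs was set beside OMVs. OMVs beside Control gave 0.523, 0.363 and 0.116, while IN@OMVs beside Control gave 0.453, 0.302 and 0.141. In the latter, unequal numbers gave 0.36 (IN@OMVs 2 with Control 3), 0.289 (IN@OMVs 3 with Control 2) and otherwise -0.45 to -0.295. These values do not settle whether equal numbers mark pairs. The main fit used no pairs, and the replicate block was run as an alternative in every comparison.

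The receptors and lists were chosen with earlier results of these data known. All 10 receptors are named, up to 3 called genes of each pathway list, and the 3 genes most like each called receptor, except that 1 of these and 1 marker gene are not reported here. The planned protein comparison was not run.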

Additional observations from a re-analysis of the deposited data

How the results depend on the processing

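In IN@OMVs against Control the higher Tlr12 passed under every alternative (1.46 to 1.83) and the higher Tlr3 under all but the omission of Control 2 or Control 3. The number of receptors called there ran from 1 to 4 over the 9 omissions of 1 library, and it was 4 without replicate 1 of every group, an alternative chosen after the data were seen. In IN@OMVs against OMVs it ran from 0 to 4, was 2 with DESeq2 (Tlr3 being added at 0.41, adjusted p = 0.0166), and was 3 without replicate 1 of every group. Omitting replicate 1 of every group also called Tlr2 (-0.46) and Tlr5 (-0.65) lower against Control, and -0.65 and -0.71 against OMVs. In OMVs against Control 0 receptors passed under any setting, while over all genes the 55 calls became 207 with DESeq2, 36 with limma-voom and 0 to 266 over the omissions. Over the omissions the 858 calls of IN@OMVs against Control ran from 393 to 1635, and the 373 against OMVs from 180 to 786 (646 with DESeq2). The causes of these moves were not tested.

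With the replicate number as a block the all-gene calls were 20 in OMVs against Control, 673 in IN@OMVs against Control and 306 in IN@OMVs against OMVs. Whether equal numbers mark paired samples is not known. No call of a receptor changed with the block: Tlr12 was 1.71 (adjusted p = 0.00415) and Tlr3 0.57 (adjusted p = 0.0265) against Control, and Tlr12 was 1.20 (adjusted p = 0.0238) against OMVs. Among the pathway genes the 5 higher and 6 lower against Control became 4 and 5, and the 5 and 7 against OMVs became 3 and 6, with Irf7 (adjusted p = 0.057), Cnpy4 (0.0691) and Dnase1l3 (0.0531) lost.

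A change of sign was seen for 10 receptor values across the 3 comparisons, none of which had passed. Over the omissions in OMVs against Control, Tlr1 ran from -0.00912 to 0.13, Tlr2 from -0.0295 to 0.16, Tlr5 from -0.17 to 0.066 and Tlr8 from -0.10 to 0.14. In IN@OMVs against Control, Tlr1 ran from -0.18 to 0.20, Tlr8 from -0.12 to 0.14 and Tlr13 from -0.20 to 0.093. Against OMVs, Tlr1 ran from -0.26 to 0.11 and Tlr8 from -0.17 to 0.14. Without replicate 1 of every group the value was 0.0553 for Tlr5 in OMVs against Control, -0.23 for Tlr1 and -0.13 for Tlr8 in IN@OMVs against Control, and -0.0435 for Tlr13 in IN@OMVs against OMVs. With 3 libraries a group and SEs of 0.09 to 0.20, a value that did not pass does not show that levels were equal.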
